A study of Mus musculus with 16 samples.

Results

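The genes described here are 28 general neuronal, neurofilament and synaptic vesicle genes, taken by name from the 20730 gene rows of each library. They fall into 9 general neuronal genes, 4 neurofilament genes and 15 presynaptic genes. The rule names them and reads no measured value, although it was written with earlier results of these data known. Neurofilament proteins assemble into the intermediate filaments of axons, where light, medium and heavy subunits and alpha-internexin are built together and set axon calibre. Synaptic vesicle proteins load, dock, fuse and retrieve transmitter vesicles at nerve terminals, so their messenger RNAs are made mainly in the cell bodies of neurons. In the striatum most neurons are GABAergic projection neurons, and some terminals there belong to axons of neurons that lie elsewhere, whose messenger RNA is mostly not in the dissected tissue.

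Whole striata came from 8 adult C57BL/6N mice. All 8 had received a RiboTag adeno-associated virus, which carries the ribosomal protein Rpl22 with a haemagglutinin (HA) tag and was directed to astrocytes. Control mice, 4 of the 8, also received a virus for a control protein, and the other 4, called PMCA mice below, received a virus for hPMCA2w/b, a calcium pump of the human plasma membrane, which reduces calcium signals. Each mouse gave 2 libraries, RNA of the lysate after clearing (input) and ribosome-bound RNA precipitated through the tag (IP), so there were 4 groups of 4 libraries. How expression was restricted to astrocytes was not given in the sources used here. Levels are given as log2 CPM, where CPM is the read count of a gene scaled to a common library size, and a difference of 1 is a change of 2-fold.

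The libraries held 32.3 to 40.9 M reads in gene rows for the input and 46.8 to 58.5 M for the IP. No member was measured by fewer than 593 reads in any library, the value of Elavl4 in an input library. The 12 astrocyte markers summed to 3514 to 3612 CPM in control input and 35209 to 46562 CPM in control IP, and all 12 were called higher in the IP. RNA of other cells was present in the IP as well: the 14 projection neuron markers summed to 11121 to 12043 CPM in control input and to 2790 to 5005 CPM in control IP, and none of the listed markers was at 0 reads. Rpl22 itself, which the virus adds to, was lower in PMCA than in control mice by a log2 fold of -1.69 in IP and -0.88 in input, with limma adjusted p = 1.92e-05 and 4.89e-04. A difference between PMCA and control mice in the IP therefore cannot be told apart from a difference in the tagged protein, and in such bulk RNA fewer cells of a type and less RNA per cell cannot be told apart either. Mouse Atp2b2, the orthologue of the human pump, differed by 0.35 in IP (adjusted p = 0.113) and does not check the human transgene. The fourth control mouse carries 1 animal number in its library titles and another as source name.

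Libraries of IP stood apart more than those of input. Control IP replicate 1 was the highest of its group for 26 of the 28 members, with a median deviation of 0.23 from the group mean. PMCA IP replicate 4 was the highest for 14 members and the lowest for 8, from 0.73 above the group mean for Sv2b to 0.44 below it for Vamp2. The projection neuron markers summed to 5005 CPM in control IP replicate 1, against 2790 to 3836 CPM in the other control IP libraries, and to 4666 CPM in PMCA IP replicate 4, against 2967 to 3496 CPM in the other PMCA IP libraries. The part of those markers in the results was not tested, and results that rest on these libraries are given without them as well.

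Setting IP against input in control mice asks which of these genes were carried on the tagged ribosomes beyond their share of the lysate. Most members were lower in the IP, but not as one block. Rbfox3, Sv2b, Nefm, Cplx2 and Nefl were reduced by more than 1 on the log2 scale, while Elavl4, Syn1, Stmn2, Tubb3 and Sv2a were higher in the IP. In a limma fit on 16072 genes, with calls at a Benjamini-Hochberg adjusted p under 0.05, 16 members were called lower, 5 were called higher and 7 were not called. Over all genes tested 38.4% were called lower and 39.1% higher, so 77.5% passed the test in some direction. The median log2 fold was -0.32 over the 28 members and -0.0025 over all genes. Every IP library lay below every input library for 14 members and above for 3, which held for 35.3% and 37% of all genes. Without control IP replicate 1, 19 members were called lower and 4 higher, where 39% and 38.3% of all genes were.

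**Figure D1:**
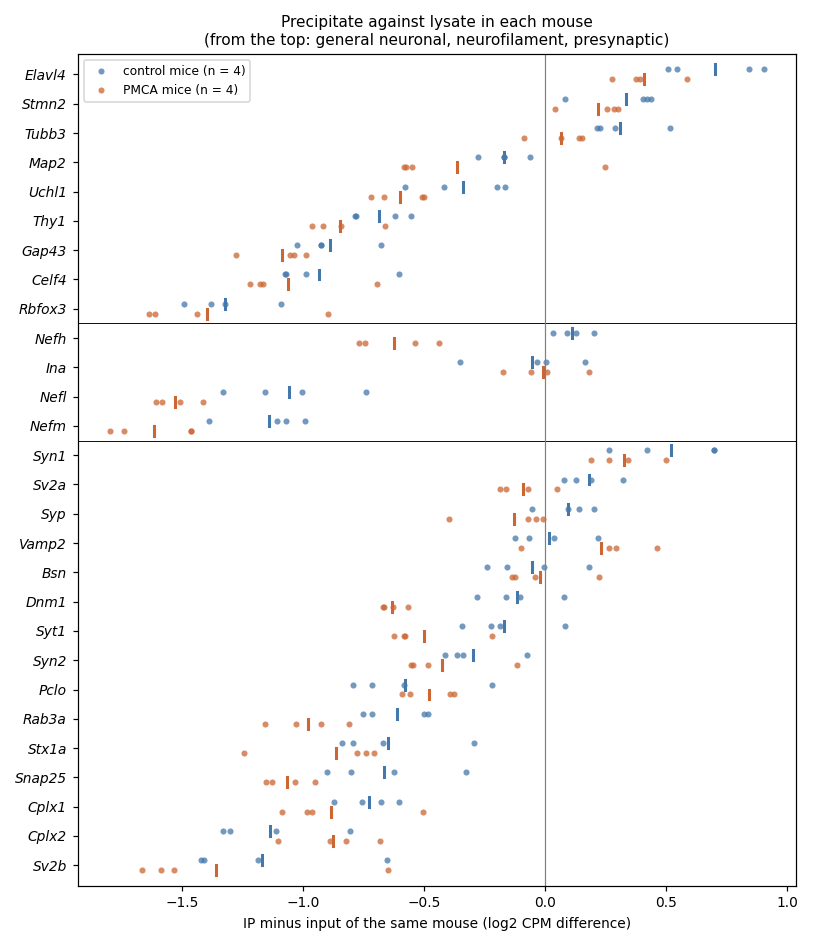
IP minus input within each mouse, as a difference in log2 CPM (horizontal axis), for each of the 28 members (vertical axis, ordered within the 3 classes). Points are the 4 control and 4 PMCA mice and short vertical bars are means; Elavl4 and Syn1 lie right of 0 in all 8 mice, Rbfox3, Nefl and Nefm lie left of 0 in all 8, and Nefh lies right of 0 in the control mice and left of 0 in the PMCA mice.

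Among the general neuronal genes, all 9 were called in control mice, 6 lower and 3 higher. Rbfox3, which encodes the nuclear splicing factor detected as NeuN, fell the most. Its log2 CPM in control input was 7.62, 7.52, 7.45 and 7.48 in replicates 1 to 4, and in control IP it was 6.53, 6.14, 5.96 and 6.16. Every IP library lay below every input library, and the log2 fold was -1.32 (SE 0.10, adjusted p = 6.26e-07). Celf4, an RNA-binding regulator of neuronal messages, fell by 0.93, the growth cone protein gene Gap43 by 0.89 and the surface glycoprotein gene Thy1 by 0.68. The ubiquitin hydrolase gene Uchl1 fell by 0.34 and the dendritic microtubule protein gene Map2 by 0.17. Map2 lost its call in 7 of the 8 fits that left out a library.

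The 3 general neuronal genes that were higher in the control IP were Elavl4, Stmn2 and Tubb3. Elavl4 encodes the neuronal RNA-stabilising protein HuD. Its log2 CPM was 4.45, 4.02, 4.58 and 4.43 in control input and 5.36, 4.87, 5.13 and 4.94 in control IP. The groups did not overlap, and the log2 fold was 0.70 (SE 0.13, adjusted p = 5.92e-04). Stmn2, a microtubule-destabilising protein of growing axons, rose by 0.34 and Tubb3, the neuronal beta tubulin, by 0.31. Elavl4 was the only one of the 5 higher members that kept its call in each of the 16 alternative fits. With total reads in place of scaled library sizes, which moved the median of all genes to -0.28, Stmn2 and Tubb3 were no longer called.

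The 4 neurofilament genes split in control mice. Nefl and Nefm, the light and medium subunits, are neighbours on chromosome 14 of GRCm38.p6, at chr14:68083863-68089095 and chr14:68119545-68125004, with 30450 bases between them. Nefm was at 6.05, 6.07, 6.22 and 5.94 log2 CPM in control input and at 4.98, 4.97, 4.84 and 4.95 in control IP, a log2 fold of -1.14 (SE 0.068, adjusted p = 7.22e-08). Nefl was at 8.13, 8.09, 8.24 and 8.24 in control input and at 7.39, 7.09, 6.91 and 7.09 in control IP, a log2 fold of -1.06. For both genes all IP libraries lay below all input libraries. Nefh, the heavy subunit at chr11:4938754-4948064, and Ina, alpha-internexin at chr19:47014681-47025327, were not called. Nefh was at 5.32 ± 0.14 in input and 5.44 ± 0.096 in IP, and Ina at 5.43 ± 0.15 and 5.38 ± 0.14 (SD, n = 4). Nefh was nonetheless above its own input in 4 of 4 control mice, by 0.032 to 0.20.

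The 15 presynaptic genes gave 8 lower and 2 higher calls in control mice. Syn1 was called opposite to its paralogue Syn2, and Sv2a opposite to its paralogue Sv2b. Syn1 and Syn2 encode synapsins, which tether vesicles to each other in the reserve pool. Syn1 was at 6.61, 6.37, 6.69 and 6.45 log2 CPM in control input and at 7.31, 6.79, 6.95 and 7.15 in control IP, above every input library, with a log2 fold of 0.52 (SE 0.11, adjusted p = 1.18e-03). Syn2 was at 8.14, 8.10, 8.18 and 8.12 in input and at 8.06, 7.74, 7.77 and 7.79 in IP, with a log2 fold of -0.30 (SE 0.073, adjusted p = 3.46e-03). Within each control mouse the IP-to-input difference of Syn1 exceeded that of Syn2, by 0.67 to 1.04. Sv2a and Sv2b encode vesicle glycoproteins. Sv2a rose by 0.18 and Sv2b fell by 1.17, and the 4 control mice differed between them by 0.84 to 1.53. Sv2a had the smaller of the rises in this class and kept its call in 9 of 16 alternatives: it lost it in 5 of the 8 fits that left out a library and without a variance trend, and turned to -0.096, uncalled, with total reads.

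Of the fusion machinery Snap25, Stx1a and both complexins were lower in the control IP. SNAP-25 and syntaxin-1A, from Snap25 and Stx1a, pair with the vesicle protein synaptobrevin-2, from Vamp2, to drive fusion. Snap25 was at 10.34, 10.39, 10.45 and 10.24 log2 CPM in control input and at 10.01, 9.58, 9.54 and 9.62 in control IP, with a log2 fold of -0.66 (SE 0.11). Stx1a fell by 0.65 with overlapping groups, and Vamp2 differed by 0.017, uncalled. Complexins clamp and promote the same complex, and Cplx2 and Cplx1 fell by 1.14 and 0.73. Syt1, the calcium sensor for release, differed by -0.17 and was not called (adjusted p = 0.109). Rab3a, the vesicle GTPase, fell by 0.61, whereas the vesicle membrane protein gene Syp was not called at 0.096. Of the giant active zone scaffolds, Pclo fell by 0.58 and Bsn was not called at -0.055. Dnm1, the neuronal dynamin that pinches vesicles off during retrieval, was not called at -0.12.

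Promoter sequence is shown for 3 members: Syn1, which was higher in IP where Syn2 was lower, Ina, which was called in no comparison, and Dnm1, the only presynaptic gene called in the test of the PMCA difference between IP and input. Each run is the 250 bases before a RefSeq transcript start in GRCm38.p6, written 5′ to 3′ on the strand of the gene, at chrX:20920919-20921168 (minus strand), chr19:47014431-47014680 (plus strand) and chr2:32353330-32353579 (minus strand). Capitals mark the 3 motifs searched on both strands: TTCAGCACC, the left arm of the RE1 element bound by the neuronal repressor REST, TGACGTCA, the cAMP response element, and GGGCGG, the GC box, whose reverse complement is CCGCCC.
Syn1: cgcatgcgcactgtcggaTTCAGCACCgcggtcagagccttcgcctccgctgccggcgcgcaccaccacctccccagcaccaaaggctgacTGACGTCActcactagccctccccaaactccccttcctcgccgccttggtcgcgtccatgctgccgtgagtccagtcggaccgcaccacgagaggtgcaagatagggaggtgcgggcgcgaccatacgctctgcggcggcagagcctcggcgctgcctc
Ina: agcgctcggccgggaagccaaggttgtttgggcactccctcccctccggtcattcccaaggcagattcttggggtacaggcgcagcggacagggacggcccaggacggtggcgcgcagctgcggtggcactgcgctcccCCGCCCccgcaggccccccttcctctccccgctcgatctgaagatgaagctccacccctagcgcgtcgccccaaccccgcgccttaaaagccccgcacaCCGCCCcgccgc
Dnm1: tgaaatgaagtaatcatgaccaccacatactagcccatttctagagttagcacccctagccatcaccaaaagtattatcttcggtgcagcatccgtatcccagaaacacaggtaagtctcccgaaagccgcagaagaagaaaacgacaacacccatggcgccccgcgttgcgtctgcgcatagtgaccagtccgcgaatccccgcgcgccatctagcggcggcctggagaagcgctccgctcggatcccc
The Syn1 run holds the RE1 arm, its first base 232 bases before the start, and 1 cAMP response element. The Ina run holds 2 GC boxes, and the Dnm1 run has none of the 3 motifs. The RE1 arm was in 99 of 32851 promoter windows of this length (0.301%). Counted by gene, with a match in any window, it was in 0.348% of all genes and in 1 of the 19 members that the promoter table holds. The cAMP response element was in 1.77% of all genes and 1 of 19 members. The GC box was in 35.4% of all genes and 11 of 19 members. Such matches are descriptions of the letters only.

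In PMCA mice the same comparison gave 18 members called lower, 3 called higher and 7 not called, where 39.3% of the 16345 genes tested were called lower, 37.4% higher and 76.8% either way. The median log2 fold was -0.61 over the members and -0.041 over all genes. Nefm fell the most, by 1.62, followed by Nefl at -1.53, Rbfox3 at -1.39 and Sv2b at -1.36. Elavl4, Syn1 and Stmn2 were again called higher, at 0.41, 0.33 and 0.22, and each lost its call with total reads. Of the members called in control mice, 15 were lower in both and 3 higher in both. Tubb3 and Sv2a were called higher in control mice alone and Map2 lower in control mice alone, while Nefh, Dnm1 and Syt1 were called lower in PMCA mice alone. All IP libraries lay below all inputs for 17 members and above for 1, against 35.8% and 35.6% of all genes. Whether the fraction difference itself differed between treatments is tested below. With each mouse as a block, 19 members were lower and 4 higher, as Map2 and Vamp2 gained calls. With that block 40% of all genes were lower and 37.9% higher.

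The gaps of Syn1 and Sv2a to their paralogues in the IP-to-input difference also held within PMCA mice. This difference was larger for Syn1 than for Syn2 in 4 of 4 mice, by 0.31 to 0.98. It was larger for Sv2a than for Sv2b in 4 of 4, by 0.70 to 1.50. Syn1 and Syn2 were again called in opposite directions, whereas Sv2a was at -0.092, uncalled, on the same side of 0 as Sv2b. The complexins, both lower in IP, were less regular. Cplx1 fell less from input to IP than Cplx2 in 4 of 4 control mice, by 0.20 to 0.63. In PMCA mice it did so in 2 of 4, with values from -0.30 to 0.39.

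Other genes of the same pathways were counted between IP and input in control mice. Of 34 further presynaptic genes 19 were called lower and 4 higher, with Synpr, a synaptophysin relative, at -1.79 and Doc2b, a calcium sensor of release, at -1.51. Of 26 further general neuronal genes 17 were lower and 4 higher, with Nrsn1 at -2.11, Celf3 at -1.68 and the beta tubulin gene Tubb2a at 1.67. Of 22 postsynaptic genes 18 were lower and 3 higher, among them the scaffold genes Homer1 at -1.68 and Dlgap3 at -1.64. All 5 other intermediate filament genes were higher, led by Gfap, also an astrocyte marker, at 3.38, Vim at 2.89 and Prph, the peripheral neuron filament, at 2.16. Of 17 broadly expressed relatives of the members, such as the ubiquitous dynamin Dnm2 (1.16) and the microtubule protein Map4 (1.15), 10 were higher and 2 lower. The median log2 fold was -0.33, -0.63, -0.69, 2.16 and 0.47 in these lists, in that order. All 14 projection neuron markers were lower, with a median of -1.56, whereas 9 of 10 interneuron markers were higher, with a median of 1.99 and Nos1 at 3.48 and Chat at 2.50. The summed interneuron markers were 294 to 330 CPM in control input and 1365 to 1420 CPM in control IP, and their part in the values of the members was not tested.

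Setting PMCA against control mice in the IP asks how ribosome-bound levels differed between mice given the pump and mice given the control protein. All calls among the members were downward. Nefh, Nefl, Nefm, Dnm1, Rab3a and Snap25 fell by about 0.5 or more on the log2 scale, and Uchl1, Elavl4, Tubb3, Gap43, Syp, Sv2a, Thy1 and Stmn2 fell by smaller amounts. The limma fit on 15748 genes called 14 of 28 members lower and 0 higher, where 10.1% of all genes were called lower and 9.54% higher. In either direction 19.6% were called. At an unadjusted p under 0.05, 15 members were lower and 2 higher, against 35.1% of all genes in either direction. The median log2 fold was -0.31 over the members and -0.012 over all genes. In the same 14 members every PMCA IP library lay below every control IP library, which held for 14.2% of all genes.

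**Figure D2:**
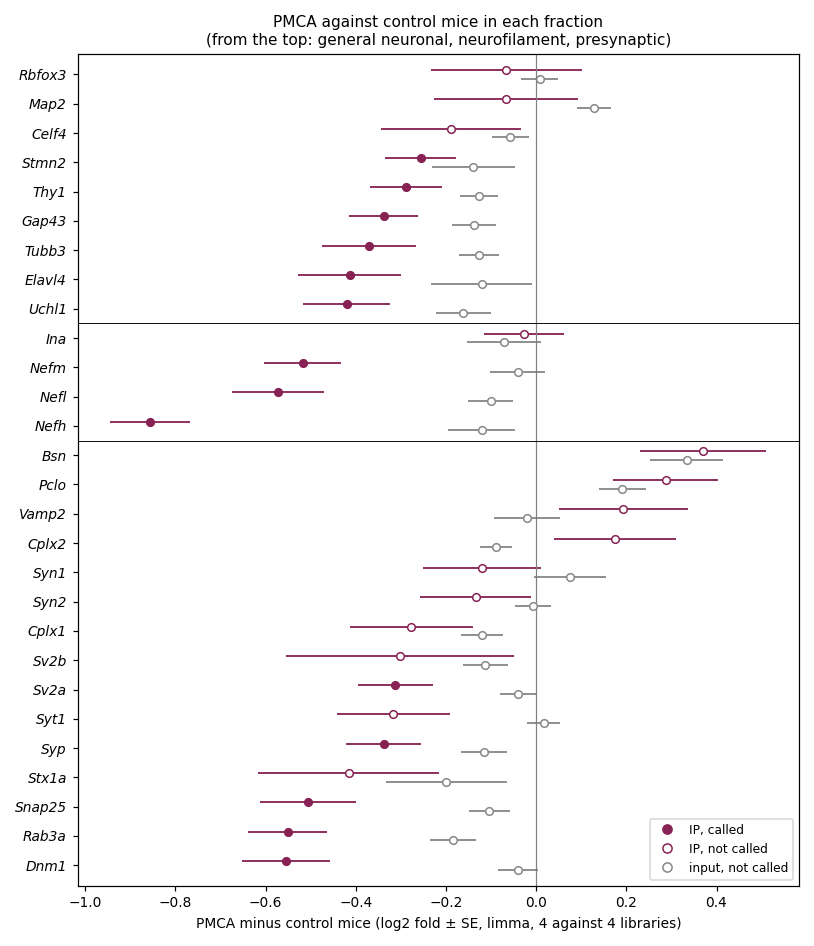
PMCA minus control mice as log2 fold ± SE from limma (horizontal axis, 4 against 4 libraries) for each of the 28 members (vertical axis). Filled symbols are IP values called at adjusted p under 0.05 and open symbols are values not called; the 14 called IP values run from -0.86 for Nefh to -0.26 for Stmn2, and no input value was called.

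Nefh and Nefl had the largest reductions of the members, and Nefm fell by slightly less than Dnm1 and Rab3a. Nefh was at 5.56, 5.40, 5.45 and 5.34 log2 CPM in control IP and at 4.43, 4.48, 4.65 and 4.77 in PMCA IP, with a log2 fold of -0.86 (SE 0.088, adjusted p = 1.0e-03). Nefl was at 7.39, 7.09, 6.91 and 7.09 in control IP and at 6.54, 6.46, 6.47 and 6.72 in PMCA IP, with a log2 fold of -0.57 (SE 0.10, adjusted p = 6.21e-03). Nefm was at 4.98, 4.97, 4.84 and 4.95 in control IP and at 4.27, 4.46, 4.32 and 4.61 in PMCA IP, with a log2 fold of -0.52 (SE 0.085, adjusted p = 4.37e-03). The groups did not overlap in any of these 3 genes, and the PMCA IP libraries were low together. Ina parted from them: it was at 5.53, 5.27, 5.26 and 5.46 in control IP and at 5.38, 5.24, 5.27 and 5.52 in PMCA IP. Its log2 fold was -0.027 with a 95% interval from -0.22 to 0.17, which leaves out reductions as large as those of the other 3.

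Of the presynaptic genes 5 of 15 were called lower. Dnm1 was at 9.16, 8.72, 8.72 and 8.84 log2 CPM in control IP and at 8.28, 8.26, 8.39 and 8.29 in PMCA IP, with a log2 fold of -0.55 (SE 0.098, adjusted p = 5.98e-03). Rab3a was at 7.76, 7.48, 7.41 and 7.55 in control IP and at 7.02, 7.06, 7.08 and 6.83 in PMCA IP, with a log2 fold of -0.55 (SE 0.088, adjusted p = 4.18e-03). Snap25 was at 10.01, 9.58, 9.54 and 9.62 in control IP and at 9.24, 9.12, 9.27 and 9.10 in PMCA IP, with a log2 fold of -0.51 (SE 0.11, adjusted p = 0.0115). All 3 separated the groups without overlap. Syp and Sv2a fell by 0.34 and 0.31 and kept their calls in 18 and 14 of 19 alternative fits. The uncalled members of this class ran from Stx1a at -0.42 to 4 positive values, Bsn at 0.37, Pclo at 0.29, Vamp2 at 0.19 and Cplx2 at 0.17.

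Both active zone scaffolds had positive values in this comparison, without a call. Bsn was at 8.67, 7.97, 8.06 and 8.21 log2 CPM in control IP and at 8.63, 8.41, 8.69 and 8.66 in PMCA IP, where control IP replicate 1 lay among the PMCA values (adjusted p = 0.0889). Without control IP replicate 1, Bsn and Pclo were called higher and 10 members lower, where 8.55% of all genes were higher and 8.94% lower. Without PMCA IP replicate 4, Vamp2 was called higher and 16 members lower, where 11.5% of all genes were called in each direction. With both left out, an alternative chosen after the values were seen, Bsn, Pclo, Vamp2 and Cplx2 were called higher and 18 members lower, where 12.5% of all genes were called higher and 13.4% lower.

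**Figure D3:**
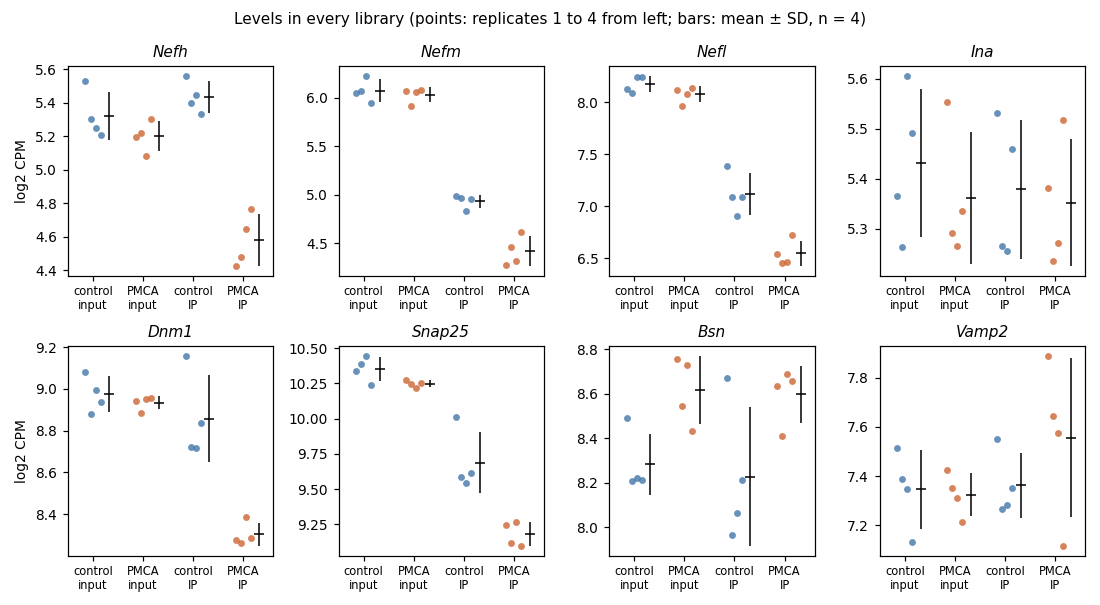
Levels in log2 CPM (vertical axes, each with its own range) of Nefh, Nefm, Nefl, Ina, Dnm1, Snap25, Bsn and Vamp2 in the 16 libraries, by group (horizontal axis), with points for replicates 1 to 4 from the left and bars for mean ± SD (n = 4). In the PMCA IP group Nefh, Nefm, Nefl, Dnm1 and Snap25 lie below all other groups, Ina covers a like range in all 4 groups, and Vamp2 in PMCA IP runs from 7.12 to 7.89.

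Of the general neuronal genes 6 of 9 were called lower, and none of the other 3 had a positive value. Uchl1 fell by 0.42 (SE 0.097, adjusted p = 0.0163), and Elavl4 by 0.41, Tubb3 by 0.37, Gap43 by 0.34, Thy1 by 0.29 and Stmn2 by 0.26. Uchl1 and Gap43 kept their calls in 18 of 19 alternative fits. Elavl4 was called in 13 of them, Tubb3 in 12, Thy1 in 10 and Stmn2 in only 5. Rbfox3 and Map2 were both at -0.07 and Celf4 at -0.19. Map2 was at 9.34, 9.22, 9.20 and 9.09 log2 CPM in control IP and at 9.0, 8.96, 8.91 and 9.70 in PMCA IP, where replicate 4 alone was above the control libraries. Without that library Map2 and Syt1 were among the members called lower.

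The number of lower calls depended on which libraries were in the fit. It was 9 without PMCA IP replicate 1 and 9 without PMCA IP replicate 2, against 16 without PMCA IP replicate 4, and 9 with the set of animal numbers by source name as a block. That block set PMCA mice 3 and 4 apart with no control mouse beside them. The difference then rested on PMCA mice 1 and 2 against the control mice. The lower calls over all genes moved too, at 6.78%, 6.49%, 11.5% and 4.8% in these 4 fits, against 10.1% with all libraries. Nefl, Nefm, Nefh, Snap25, Rab3a and Dnm1 kept their calls in every alternative run. The members called lower here had differed in the other comparison: of the 5 members higher in IP than input in control mice 4 fell, of the 16 lower in IP 7 fell, and of the 7 uncalled 3 fell. Both comparisons share the control IP libraries, so these counts are given as a description.

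Among the other lists in the same comparison, 8 of 34 further presynaptic genes were lower and 0 higher, among them Vamp1, the axonal synaptobrevin, at -0.65, Synpr at -0.53 and Nsf, the ATPase that takes SNARE complexes apart, at -0.47. Of 26 further general neuronal genes 9 were lower and 0 higher, including Nsg2 at -0.48 and neuronal enolase Eno2 at -0.47. Their median log2 folds were -0.15 and -0.24. The postsynaptic list parted from these in its calls, with 4 of 22 genes higher and 0 lower. Shank2 rose by 0.98, Shank1 by 0.93, Shank3 by 0.88 and Dlgap2 by 0.70. The list's median was 0.052, with 12 values positive and 10 negative. Of the other intermediate filament genes Nes rose by 0.60, and of the broadly expressed relatives Stx2 and Stx4a rose and Tubb5 fell.

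Markers of several cell types also differed between treatments in the IP, some in the direction of these members and some in the other. Of 10 interneuron markers 7 were lower, with Pvalb at -1.38, Pthlh at -1.01 and Kit at -0.85, and their summed level was 1365 to 1420 CPM in control IP and 1095 to 1219 CPM in PMCA IP. Of 14 projection neuron markers 2 were lower, among them Gpr6 at -0.63, and their summed level overlapped, at 2790 to 5005 and 2967 to 4666 CPM. Of 12 astrocyte markers 4 were higher, with summed levels of 35209 to 46562 and 47363 to 56111 CPM. Microglia markers were higher for 4 of 10 genes, endothelial markers for 4 of 7 and nuclear noncoding RNAs for 7 of 7, with sums of 64.2 to 81.4 against 80.0 to 130.6 CPM, 6.37 to 7.02 against 10.02 to 15.1 CPM and 1511 to 2258 against 3230 to 5689 CPM. No oligodendrocyte or cortical glutamatergic marker was called. The part of these markers in the result for the members was not tested.

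In input, PMCA and control mice differed in these genes by log2 folds of -0.20 to 0.33, none of them called. The limma fit on 16306 genes called 0 members in each direction, where 0.362% of all genes were called higher and 0.0797% lower. At an unadjusted limma p under 0.05, 13 of the 28 members passed, 10 lower and 3 higher, a larger share than the 19.3% of all genes in either direction. After adjustment limma-voom on whole reads also called 0. The median log2 fold was -0.095 over the members and -0.0061 over all genes. Rab3a was at 8.26, 8.19, 8.16 and 8.04 log2 CPM in control input and at 8.05, 7.99, 7.89 and 7.98 in PMCA input (log2 fold -0.18, adjusted p = 0.113). Bsn was at 8.49, 8.21, 8.22 and 8.21 in control input and at 8.76, 8.54, 8.73 and 8.43 in PMCA input (log2 fold 0.33, SE 0.081, adjusted p = 0.0872), with PMCA replicate 4 below control replicate 1. Pclo and Map2 lay higher in every PMCA input library and Cplx2 lower, where 4.98% and 4.77% of all genes separated upward and downward. Without control input replicate 4, Bsn was called higher and Rab3a, Thy1 and Uchl1 lower, and over all genes 5.69% were called higher and 2.53% lower.

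The last comparison tests whether the PMCA difference itself differed between IP and input, in a fit on 16673 genes over all 16 libraries. Nefh, Dnm1 and Nefm were called, all more negative in IP than in input, so 3 members were lower and 0 higher, where 1.06% of all genes were called lower, 0.972% higher and 2.03% either way. At an unadjusted p under 0.05, 11 members were lower and 0 higher, against 16.3% of all genes in either direction, and limma-voom also called 0 higher. For Nefh the IP minus input difference in control mice was 0.032, 0.092, 0.20 and 0.13 in replicates 1 to 4, and in PMCA mice it was -0.77, -0.74, -0.44 and -0.54. All control mice were above 0 and all PMCA mice below it, and the difference of the effects was -0.74 (SE 0.12, adjusted p = 8.60e-03). For Dnm1 the control values were 0.077, -0.16, -0.28 and -0.10 and the PMCA values -0.66, -0.63, -0.57 and -0.67, a difference of -0.52 (SE 0.11, adjusted p = 0.0312). For Nefm the control values were -1.07, -1.11, -1.39 and -0.99 and the PMCA values -1.80, -1.46, -1.74 and -1.46, a difference of -0.48 (SE 0.11, adjusted p = 0.0322). Nefl, at -0.47, had an adjusted p of 0.0538 and was called with each mouse as a block. The median over the members was -0.20, against 0.0062 over all genes, and 6 of 10 interneuron markers were called lower in this comparison as well.

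The interaction calls depended on which mice were in the fit, while the differences kept their direction and about their size. No member was called without control mouse 2 or without PMCA mouse 2, 1 was called without PMCA mouse 1, PMCA mouse 3 or control mouse 4, and 5 were called without PMCA mouse 4. Over all genes 0.137% were called without control mouse 2 and 0.214% without PMCA mouse 2, against 2.03% with all mice. The share was 0.244% without PMCA mouse 1, 0.323% without PMCA mouse 3, 1.35% without control mouse 4 and 2.59% without PMCA mouse 4. Over all alternatives the difference ran from -0.80 to -0.69 for Nefh, from -0.57 to -0.44 for Dnm1 and from -0.56 to -0.42 for Nefm. None of the 3 calls held in every alternative.

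Replicates of these genes varied more in IP than in input. The median SD over the members was 0.086 in control input and 0.072 in PMCA input, against 0.18 in control IP and 0.14 in PMCA IP. Stx1a had the largest SD in 3 groups and Sv2b, at 0.50, in PMCA IP. Stx1a was at 5.20, 4.72, 5.27 and 5.30 log2 CPM in control input, 4.95, 4.60, 5.10 and 5.03 in PMCA input, 4.90, 3.93, 4.43 and 4.63 in control IP and 4.18, 3.86, 4.40 and 3.79 in PMCA IP. Replicate 2 was the lowest library in both input groups and in control IP, and replicate 4 was the lowest in PMCA IP. The 7 cortical glutamatergic markers, among them Slc17a7, summed to 107, 32.8, 150.5 and 109 CPM in control input, 90.4, 34.8, 107 and 89.2 CPM in PMCA input, 130, 30.5, 109 and 134 CPM in control IP and 120, 59.1, 131 and 32.3 CPM in PMCA IP. The lowest library was the same for the markers and for Stx1a in all 4 groups, and in PMCA mouse 4 the IP was low while its input was not. This match was not particular to Stx1a, as Syp had the same lowest library in each of the 4 groups. Replicate 2 was the lowest for 14 of the 28 members in control input, 13 in PMCA input and 11 in control IP. The labels say only that whole striata were taken, and the part of the cortical markers in the Stx1a values was not tested. Without control IP replicate 2, Stx1a was called lower in PMCA than in control IP.

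**Figure D4:**
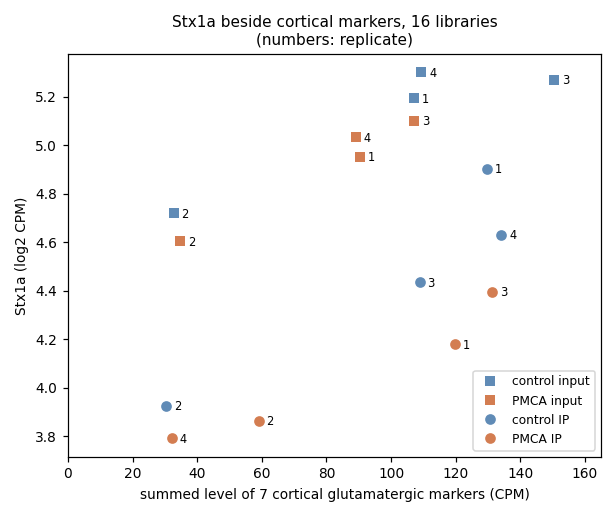
Stx1a level in log2 CPM (vertical axis) against the summed level of 7 cortical glutamatergic markers in CPM (horizontal axis) in the 16 libraries, numbered by replicate and marked by group. Within each group the library with the lowest marker sum also has the lowest Stx1a, as well as the lowest Syp (not shown). These sums run from 30.5 to 34.8 CPM, and the points share libraries of the same mice and a common depth scaling.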

How the data were processed

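Each library was deposited by the authors as log2 CPM for 20730 gene symbols. Reads were aligned to mm10 and processed with STAR, HTSeq, edgeR and limma, per the submitters' processing notes; their versions, the gene annotation and the strand setting were not given in the sources used here, so overlapping and antisense genes are uncertain. All values came out as whole reads (tolerance 0.001) at a mean prior count of 0.25, with scaling factors of 1.10 to 1.12 for input and 0.89 to 0.92 for IP, which gave the depths. Calls are therefore relative to the scaled library, and summed CPM uses the same scaling.

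Genes were kept that had the equivalent of 10 reads at the median library size in 4 or more libraries and 15 reads in all, and all 28 members passed in each comparison. Limma 3.58.1 (R 4.3.3; lmFit and eBayes with a mean-variance trend, two-sided) was fitted on all genes kept, with Benjamini-Hochberg adjustment over them. Each comparison used its own 8 libraries and the interaction used all 16. These main fits had no term for the mouse, so the pairing of IP and input entered a fit only in the alternative with each mouse as a block. The procedure was tested on simulated data, drawn with the same spread setting for all genes and no pairing of mice. Of genes changed by 0.5 on the log2 scale, 76.9% were recovered between treatments in IP and 58.2% between fractions in control mice. At a change of 1, 98.1% and 100% were recovered. The labels do not say whether libraries of different mice were prepared apart from each other, but each replicate is a mouse. IP and input of a mouse came from the same striatum: their deviations from the group means correlated at 0.11 to 0.33 in all 8 mice over 16673 genes, against -0.20 to 0.078 between different mice of a treatment.

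The members and lists were chosen with earlier results of these data known. All 28 members are described, with full values for the largest rise and fall of each class and for members that parted from their class, and up to 4 called genes of each other list by size. Members followed per library beyond these, such as Rab3a, Snap25, Bsn and Stx1a, were chosen after their values were seen. Alternatives were total reads or median-ratio scaling, no filter, a prior count of 2, limma-voom on whole reads, eBayes without a trend or with a robust prior, blocks, and each library left out. All 28 members matched a RefSeq symbol. Levels were not compared between genes, and apart from the RefSeq promoter windows no sequence was used here.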

Additional observations from a re-analysis of the deposited data

Results flagged for a closer look

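In 8 of the 112 sets of 4 replicates (each member in each group) 1 library lay far from the other 3, where chance gives about 1 in 20 sets. In control IP replicate 1 this held for Snap25 at 10.01 log2 CPM (next library 9.62), Syt1 at 9.70 (next 9.37) and Syn2 at 8.06 (next 7.79), all high. In PMCA IP replicate 4 it held for Map2 at 9.70 (next 9.0) and Syt1 at 9.45 (next 9.02), both high. In input it held for Bsn in control replicate 1 at 8.49 (next 8.22), high. It also held for Nefm in PMCA replicate 2 at 5.92 (next 6.06), low, and for Syt1 in PMCA replicate 4 at 9.67 (next 9.60), high.

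The PMCA difference itself differed between IP and input for Nefh by -0.74, for Dnm1 by -0.52 and for Nefm by -0.48, on the log2 scale by the interaction term of limma.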

How the results depend on the processing

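Across the alternatives the direction of every called member held, except with total reads as library size, which lowered the median of all genes to -0.28 in control mice (PMCA: -0.35). With total reads 1 member was called higher and 22 lower in control mice, where 28% and 52.2% of all genes were. In PMCA mice 0 members were called higher and 24 lower, against 26.3% and 54.4% of all genes. Values turned to -0.16 for Nefh, -0.18 for Syp, -0.26 for Vamp2 and -0.096 for Sv2a in control mice, to -0.085 for Stmn2, -0.24 for Tubb3 and -0.075 for Vamp2 in PMCA mice, and to 0.0048 for Syn2 between treatments in input.

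With 1 library left out, members called between IP and input numbered 15 to 19 lower and 4 to 6 higher in control mice and 18 to 20 lower and 2 to 4 higher in PMCA mice. Over all genes 36.7% to 39% were lower and 37.2% to 38.4% higher in control mice. In PMCA mice 37% to 40.5% of all genes were lower and 36% to 38.3% higher. Between treatments members called numbered 9 to 16 lower and 0 to 2 higher in IP and 0 to 3 lower and 0 to 1 higher in input, and with 1 mouse left out the interaction gave 0 to 5 lower and 0 higher. In IP 5.03% to 11.5% of all genes were lower and 5.27% to 11.5% higher. In input 0.0243% to 2.53% of all genes were lower and 0.00608% to 5.69% higher. The interaction gave 0.0536% to 1.35% of all genes lower and 0.0834% to 1.23% higher. With control IP 1 and PMCA IP 4 both left out, chosen after seeing the data, 4 members were called higher and 18 lower in IP. There 12.5% of all genes were higher and 13.4% lower, and Syn1 turned to 0.070. With both mice left out the interaction gave 6 members lower, where 1.37% of all genes were lower, and Stx1a turned to 0.027.

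The set of animal numbers as a block, taken from the source name, gave 9 members lower in IP, where 4.8% of all genes were lower. The higher numbers by source name were PMCA mice 3 and 4 alone, so that fit compared PMCA mice 1 and 2 with the control mice. Taken from the title, where control mouse 4 joined the higher numbers, the block gave 2 lower and 3 higher in input, where 1.52% and 3.8% of all genes were. Xist, the RNA that silences an X chromosome in female cells, was high in control mouse 4 and PMCA mouse 3 and low in the other 6 mice, whose sex the labels used here do not give, and its level as a block gave 1 lower and 1 higher in input. With the Xist block 1.32% of all genes were lower and 3.5% higher in input. With the source name Rbfox3 turned to -0.000342, Syt1 to -0.000276 and Vamp2 to 0.041 in input, and with the title Vamp2 turned to 0.028. With each mouse as a replicate block members called higher and lower numbered 5 and 16 for controls, 4 and 19 for PMCA mice, 0 and 4 in the interaction, and no other member call changed than those of Map2 and Vamp2 in PMCA mice and Nefl in the interaction. Over all genes the shares higher and lower were 40% and 39.5% for controls and 37.9% and 40% for PMCA mice. In the interaction they were 1.67% and 1.13%.

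Uncalled values near 0 changed sign when 1 library or mouse was left out, over these ranges. Between IP and input in control mice they were -0.11 to 0.0051 for Ina, -0.054 to 0.073 for Vamp2 and -0.20 to 0.032 for Bsn, and in PMCA mice -0.065 to 0.055 for Ina and -0.079 to 0.045 for Bsn. Between treatments in IP they were -0.23 to 0.044 for Rbfox3, -0.25 to 0.010 for Map2 and -0.082 to 0.024 for Ina. In input they were -0.015 to 0.041 for Rbfox3, -0.085 to 0.0095 for Nefm, -0.00135 to 0.033 for Syt1, -0.029 to 0.021 for Syn2 and -0.092 to 0.0355 for Vamp2. In the interaction they were -0.24 to 0.0058 for Rbfox3, -0.055 to 0.116 for Ina and -0.045 to 0.115 for Bsn. The cause of these changes was not tested. Each member had at least 593 reads in every library.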
